A study of Mus musculus with 8 samples.

Results

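The fibrinogen chain genes are Fga, Fgb and Fgg, which encode the Aα, Bβ and γ chains of fibrinogen, the soluble plasma protein that thrombin turns into fibrin. They are 3 of the 15948 genes listed for 8 mouse kidney libraries, found by gene symbol. They were chosen by their values in these libraries: in an earlier fit of the same data they were among the genes higher in the Arhgef11Sglt2 kidneys. Their difference between the groups is therefore given as a description, without a test.

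The study addressed the knockout of Arhgef11, a guanine nucleotide exchange factor, in hypertension and kidney injury. The 3 libraries labelled Arhgef11Sglt2_DOCA come, by the study's title, from kidneys with a knockout limited to the proximal tubule, and the 5 libraries labelled Sglt2Cre_DOCA, named for the Cre alone, served as controls. Both groups received DOCA (deoxycorticosterone acetate, a mineralocorticoid used to raise blood pressure), so nothing here compares DOCA with no DOCA. Sglt2, encoded by Slc5a2, takes up glucose in the early proximal tubule, so a Cre driven by its promoter acts in a fraction of the cells, while RNA was taken from kidney tissue holding all cell types. The labels gave no strain, age or sex, left the genotype field empty and did not say that samples came from separate animals; the p-values below therefore reflect the spread between samples, which can include technical spread. In such bulk RNA, fewer cells of a type and less RNA per cell cannot be told apart.

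Fibrinogen is a hexamer of pairs of the Aα, Bβ and γ chains, assembled in the endoplasmic reticulum and secreted mainly by hepatocytes. Its genes lie side by side in one cluster and are acute phase genes, raised in liver by interleukin-6 through STAT3 together with C/EBP factors. Transcripts of the chains have also been described in injured kidney tubule cells, and fibrin is deposited in damaged kidneys.

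The whole table had 354 genes past an adjusted p of 0.05 (limma, Benjamini-Hochberg over 15948 genes), 100 higher and 254 lower in the Arhgef11Sglt2 libraries. Scaling the libraries to the same total changed this to 149 higher and 178 lower. Estimated depth was 51.3 to 57.9 M reads in the Arhgef11Sglt2 libraries and 33.1 to 59.5 M reads in the control libraries (M, 1000000). The number of calls depended on single libraries: it was 24 without control replicate 4, 45 without Arhgef11Sglt2 replicate 3 and 1334 without Arhgef11Sglt2 replicate 1. Arhgef11 itself had 2935, 3919 and 3905 normalized counts in the Arhgef11Sglt2 libraries, against 3629, 3479, 3682, 3680 and 3928 in the control libraries (limma adjusted p = 0.834). The groups overlapped, so its whole-kidney level neither separates the groups nor checks their labels. Umod, the defining transcript of the thick ascending limb of the kidney, was at 188453 to 218953 normalized counts in the Arhgef11Sglt2 group and 192171 to 229031 in the control group. Umod alone does not compare this segment between the groups. Slc12a1, another marker on the thick ascending limb and distal list, was at 31657 to 43080 and 50198 to 72682 (limma adjusted p = 0.0536). Slc5a2, the gene whose promoter names the Cre, was measured in all libraries, at 10933 to 18027 normalized counts in the Arhgef11Sglt2 group and 14406 to 21253 in the control group.

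The stretches of 250 bases before the start of each chain gene are printed because the genes are neighbours that moved together in these libraries. They are taken from RefSeq on GRCm38.p6, whereas the submitters' notes name GRCm39. They lie on chromosome 3 in the order Fgg, Fga, Fgb, with Fgb on the opposite strand, and are written 5′ to 3′ along each gene. Capitals mark CTGGGA, the core known from rat fibrinogen genes as an interleukin-6 response element, searched on both strands.
Fgg promoter, chr3:83007474-83007723 (plus strand): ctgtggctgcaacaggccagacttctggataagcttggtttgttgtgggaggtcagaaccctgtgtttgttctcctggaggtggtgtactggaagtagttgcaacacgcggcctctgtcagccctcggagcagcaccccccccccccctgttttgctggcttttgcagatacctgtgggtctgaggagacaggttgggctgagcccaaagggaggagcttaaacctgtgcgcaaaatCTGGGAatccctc
Fga promoter, chr3:83025903-83026152 (plus strand): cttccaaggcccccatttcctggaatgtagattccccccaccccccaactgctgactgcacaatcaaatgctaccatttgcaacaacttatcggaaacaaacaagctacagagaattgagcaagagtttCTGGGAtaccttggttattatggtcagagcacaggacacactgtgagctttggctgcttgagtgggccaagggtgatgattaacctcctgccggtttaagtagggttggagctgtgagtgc
Fgb promoter, chr3:83049864-83050113 (minus strand): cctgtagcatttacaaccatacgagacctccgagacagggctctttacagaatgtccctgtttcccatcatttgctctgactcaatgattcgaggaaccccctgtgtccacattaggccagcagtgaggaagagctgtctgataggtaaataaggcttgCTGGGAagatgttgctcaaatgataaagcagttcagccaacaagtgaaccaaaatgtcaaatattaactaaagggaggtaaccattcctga
The search covered these bases and the 50 that follow the start, in 32851 RefSeq windows of 300 bases. CTGGGA was in 3 of 3 chain windows and in 31.8% of all windows. Its first base lay at -13 in Fgg, -121 in Fga and -91 in Fgb relative to the start, and Fgb held a further match on the opposite strand at 45 bases after the start. The STAT pattern TTCNNNGAA was in Fga at -234 and in Fgb at -162, in 2 of 3 windows, against 8.30% of all windows. The C/EBP pattern TTGCNNAA was in Fga on the opposite strand at -135 and in Fgb at -80, 2 of 3 against 10.8%. TATAAA was in 0 of 3 windows and in 13.6% of all. These matches describe letters and not binding.

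Fga encodes the Aα chain, whose cleavage by thrombin starts fibrin assembly. Fga (ENSMUSG00000028001) had 19870, 22699 and 12116 normalized counts in Arhgef11Sglt2 replicates 1, 2 and 3, against 3431, 1907, 7069, 5338 and 2500 in control replicates 1 to 5. Every Arhgef11Sglt2 library lay above every control library, and the lowest of them was 1.71 times the highest control. The means were 18228 ± 5479 (SD, n = 3) and 4049 ± 2130 (SD, n = 5), a ratio of 4.50. The log2 difference on the deposited scale was 2.11 (SE 0.35).

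Fgb encodes the Bβ chain, the other chain from which thrombin removes a peptide. Fgb (ENSMUSG00000033831) had 3511, 4069 and 1330 normalized counts in the Arhgef11Sglt2 libraries, against 560, 341, 1216, 951 and 349 in the control libraries. The groups did not overlap, but Arhgef11Sglt2 replicate 3 was only 1.09 times control replicate 3, the highest control. The means were 2970 ± 1448 (SD, n = 3) and 683 ± 387 (SD, n = 5), a ratio of 4.35. The log2 difference was 1.55 (SE 0.33) on the deposited scale, which compresses genes of low level, and 2.15 as log2(normalized count + 1).

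Fgg encodes the γ chain, which carries the main sites for factor XIIIa crosslinking and for platelet and leukocyte integrins. Fgg (ENSMUSG00000033860) had 19479, 18772 and 7145 normalized counts in the Arhgef11Sglt2 libraries, against 3084, 1803, 6508, 4718 and 2094 in the control libraries. Here too replicate 3 was the low library of its group, at 1.1 times the highest control. The means were 15132 ± 6926 (SD, n = 3) and 3641 ± 1966 (SD, n = 5), a ratio of 4.16. The log2 difference was 1.91 (SE 0.41).

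**Figure D1:**
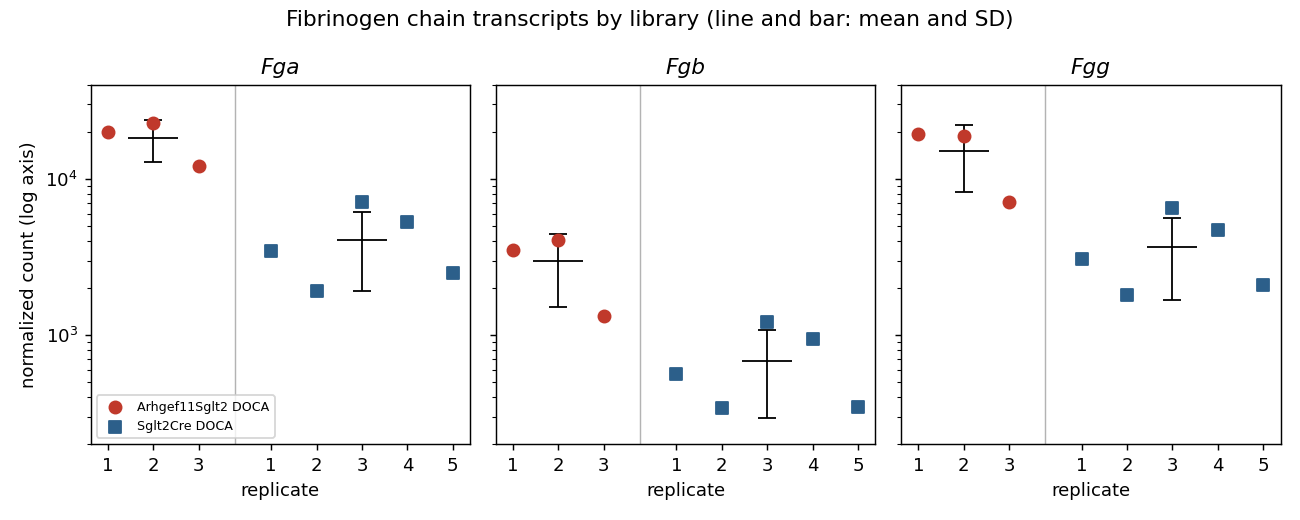
Normalized counts (log axis) of Fga, Fgb and Fgg in the 3 Arhgef11Sglt2 DOCA libraries (red circles) and the 5 Sglt2Cre DOCA libraries (blue squares); lines and bars give the mean and SD. All 3 Arhgef11Sglt2 libraries lie above the controls for each chain, with replicate 3 lowest at 12116, 1330 and 7145.

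Together the chains summed to 42860, 45540 and 20591 normalized counts in the Arhgef11Sglt2 libraries, against 7074, 4051, 14793, 11007 and 4943 in the control libraries. As a share of all normalized counts of a library this was 0.0996%, 0.0997% and 0.0452% in the Arhgef11Sglt2 libraries, against 0.0155%, 0.00885%, 0.0317%, 0.0238% and 0.0109% in the control libraries. The chains thus stayed a small part of the kidney's messenger RNA in every library. By the ratio of group means, Fga ranked 29, Fgb 30 and Fgg 37 among all 15948 genes. A ratio of at least 4 was found for 3 of 3 chains and for 0.238% of all genes. Every Arhgef11Sglt2 library lay above every control for 3 of 3 chains and for 6.2% of all genes, and 3 of 3 chains against 0.627% of all genes passed the limma threshold as higher. Since the chains were selected on this contrast, nothing is read from these counts.

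The spread within groups was wide. Among the control libraries the highest was 3.71 times the lowest for Fga, 3.56 times for Fgb and 3.61 times for Fgg. The coefficient of variation was 30.1% in the Arhgef11Sglt2 group and 52.6% in the control group for Fga. For Fgb it was 48.7% and 56.7%, and for Fgg 45.8% and 54.0%, in the same order of groups. Leaving out each library in turn gave ratios of 3.95 to 5.53 for Fga, 3.54 to 5.55 for Fgb and 3.56 to 5.25 for Fgg.

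The control libraries kept one order for all 3 chains: replicate 3 highest, then 4, 1, 5 and 2. In the Arhgef11Sglt2 group replicate 2 was highest for Fga and Fgb and replicate 1 for Fgg, and replicate 3 was lowest for each. Relative to the control mean, replicates 1 and 2 of the Arhgef11Sglt2 group were 4.91 and 5.61 times as high for Fga, 5.14 and 5.96 times for Fgb, and 5.35 and 5.16 times for Fgg. Replicate 3 was 2.99, 1.95 and 1.96 times as high for Fga, Fgb and Fgg.

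The library names carry numbers in separate ranges, and what these ranges stand for was not stated. In the lower range, with 2 Arhgef11Sglt2 and 3 control libraries, the ratio of means was 5.15 for Fga, 5.37 for Fgb and 5.04 for Fgg. In the higher range, with 1 Arhgef11Sglt2 library (replicate 3) and 2 control libraries, it was 3.09 for Fga, 2.05 for Fgb and 2.10 for Fgg. The direction was the same in both ranges; with a single Arhgef11Sglt2 library in the higher one, the range and that library cannot be told apart.

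Levels were compared between chains per length of coding sequence, from GENCODE M21 transcripts on GRCm38. Per kb of coding sequence, Fga had 10909 normalized counts in the Arhgef11Sglt2 group and 2423 in the control group with the shorter transcript (1671 coding bases), and 7701 and 1711 with the longer one (2367 coding bases). Fgg, with 1308 coding bases, had 11569 per kb in the Arhgef11Sglt2 group and 2784 in the control group. Fgb, with 1443 coding bases, had 2058 and 474. The level of Fgb was thus the lowest of the 3 in both groups, although the protein holds the chains in equal number. Per kb of whole transcript the gap was wider, since the annotated Fgb transcript is the longest (3810 bases, against 2083 or 2587 for Fga and 1695 or 1741 for Fgg): Fgb had 780 in the Arhgef11Sglt2 group and 179 in the control group.

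The balance between chains was much steadier than their level. The ratio of Fgb to Fgg normalized counts, not adjusted for length, was 0.180, 0.217 and 0.186 in the Arhgef11Sglt2 libraries, against 0.181, 0.189, 0.187, 0.202 and 0.167 in the control libraries. Its mean was 0.194 ± 0.020 (SD, n = 3) in the Arhgef11Sglt2 group and 0.185 ± 0.013 (SD, n = 5) in the control group, and its coefficient of variation over all 8 libraries was 7.97%. This difference was smaller than the spread within groups.

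The ratio of Fga to Fgg set 1 library apart. It was 1.02, 1.21 and 1.70 in the Arhgef11Sglt2 libraries, against 1.11, 1.06, 1.09, 1.13 and 1.19 in the control libraries. Arhgef11Sglt2 replicate 3 was 1.52 times the control mean of 1.12 ± 0.05 (SD, n = 5), whereas replicates 1 and 2 lay just below and just above the control range. Without replicate 3 the coefficient of variation of the remaining libraries was 6.18%, against 18.1% with it. The ratio of Fga to Fgb was likewise highest in replicate 3, at 9.11, with 5.66 and 5.58 in the other two Arhgef11Sglt2 libraries and 6.13, 5.58, 5.81, 5.61 and 7.17 in the control libraries. Replicate 3 therefore had a higher ratio of Fga to Fgb and of Fga to Fgg than any other library. These ratios do not say which chain shifted.

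**Figure D2:**
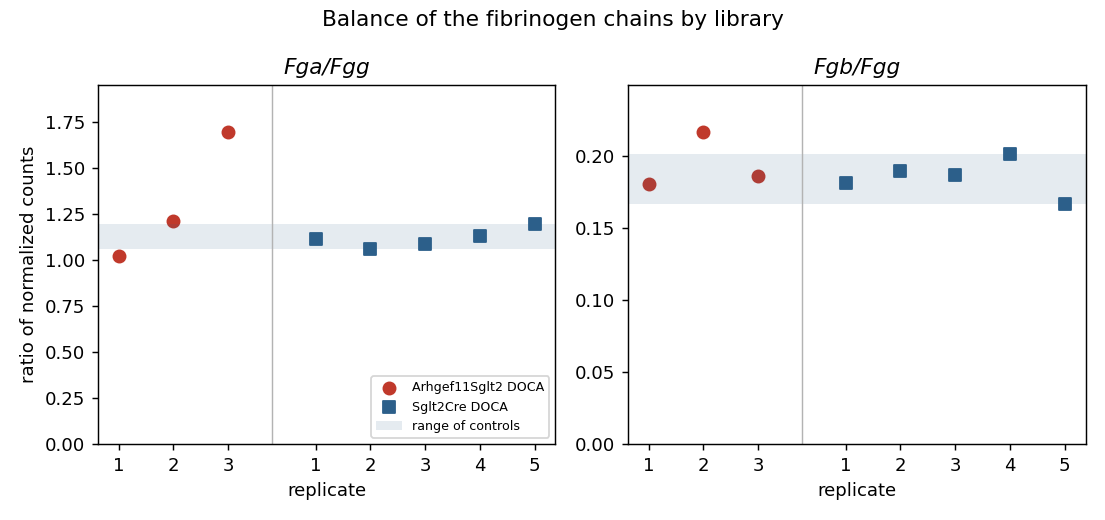
Ratio of normalized counts of Fga to Fgg (left) and of Fgb to Fgg (right) in each library, with Arhgef11Sglt2 DOCA as red circles and Sglt2Cre DOCA as blue squares; the band is the range of the controls. Fga to Fgg is 1.70 in Arhgef11Sglt2 replicate 3 and 1.02 to 1.21 elsewhere, and Fgb to Fgg stays between 0.167 and 0.217.

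Across the 8 libraries, which share their normalization, the log2 values of the chains followed each other closely. Pearson's r was 0.977 for Fga with Fgb, 0.984 for Fga with Fgg and 0.996 for Fgb with Fgg, and Spearman's rank correlation was 1.0, 0.976 and 0.976. With the group means taken off, r was 0.933, 0.962 and 0.986. Without the 2 libraries farthest from the median, Arhgef11Sglt2 replicates 1 and 2, it was 0.966, 0.974 and 0.996. These are descriptions over 8 libraries, given without p-values.

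The genes beside the cluster had levels that overlapped between the groups. On the Fgg side the nearest measured genes were Lrat, which makes retinyl esters, and Rbm46; on the Fgb side they were Plrg1, a splicing factor, and Sfrp2, a Wnt antagonist. Lrat had 87.3, 374 and 212 normalized counts in the Arhgef11Sglt2 libraries, against 257, 173, 165, 204 and 194 in the control libraries. Plrg1 had 1240, 1108 and 1260 in the Arhgef11Sglt2 libraries, against 1131, 1140, 1129, 1363 and 1145 in the control libraries. None of the 4 passed the test, and 0 of 4 had an unadjusted p under 0.05, with limma adjusted p of 0.948 (Lrat), 0.643 (Rbm46), 0.908 (Plrg1) and 0.977 (Sfrp2). Of all genes, 0.627% were called higher and 1.59% lower, and 9.04% and 12.1% at an unadjusted p under 0.05. Groups without overlap were found for 6.2% (higher) and 8.14% (lower) of all genes. Most genes thus look like these 4, and nothing is read from their counts.

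Genes with the pattern most like the chains were ranked by Pearson's r with the mean centred log2 value of the 3 chains over the 8 libraries, among 12318 genes with a mean of at least 100 normalized counts. Of these, 18 genes or 0.146% had an r of at least 0.9. The 15 highest were P2rx4, B4galt3, Tspan4, Acat3, Ptpn1, Gadd45g, Nudcd3, Ccl6, Cdh3, Cygb, Homer3, Fbxw9, Crem, Slc13a1 and Kcnh1, with r from 0.965 (P2rx4) to 0.905 (Kcnh1). Their range between groups was far smaller than that of the chains: the ratio of means ran from 1.12 to 2.37, and only Acat3 (2.01) and Kcnh1 (2.37) were above 2. Because the chains were themselves selected on the group contrast, genes ranked by likeness to them tend to differ between the groups by construction, and no test of that difference is given for them.

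P2rx4, an ATP-gated cation channel, had 2891, 2619 and 2432 normalized counts in the Arhgef11Sglt2 libraries, against 1839, 1838, 2151, 2001 and 1733 in the control libraries. Kcnh1, a potassium channel, had 362, 342 and 100 in the Arhgef11Sglt2 libraries, against 90.6, 40.2, 221, 116 and 97.9 in the control libraries, so that its replicate 3 fell inside the control range. Slc13a1, the sulfate transporter of the proximal tubule, behaved likewise, with 52851, 51049 and 22996 in the Arhgef11Sglt2 libraries, against 22733, 22519, 31381, 26970 and 18783 in the control libraries. Without the 2 libraries farthest from the median, Arhgef11Sglt2 replicates 1 and 2, r of the 15 genes ranged from 0.620 (Slc13a1) to 0.975 (Fbxw9).

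Tspan4, a tetraspanin, had 2948, 2682 and 2748 normalized counts in the Arhgef11Sglt2 libraries, against 1736, 1674, 2213, 1942 and 1662 in the control libraries. The membership of the 15 moved with single libraries: between 1 and 10 of them remained among the 15 highest when each library was left out in turn. The 5 genes with the lowest r were Strip2 (-0.949), Ndufa10, a subunit of mitochondrial complex I (-0.942), Tcea3 (-0.932), Map7 (-0.929) and Erg28 (-0.927).

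**Figure D3:**
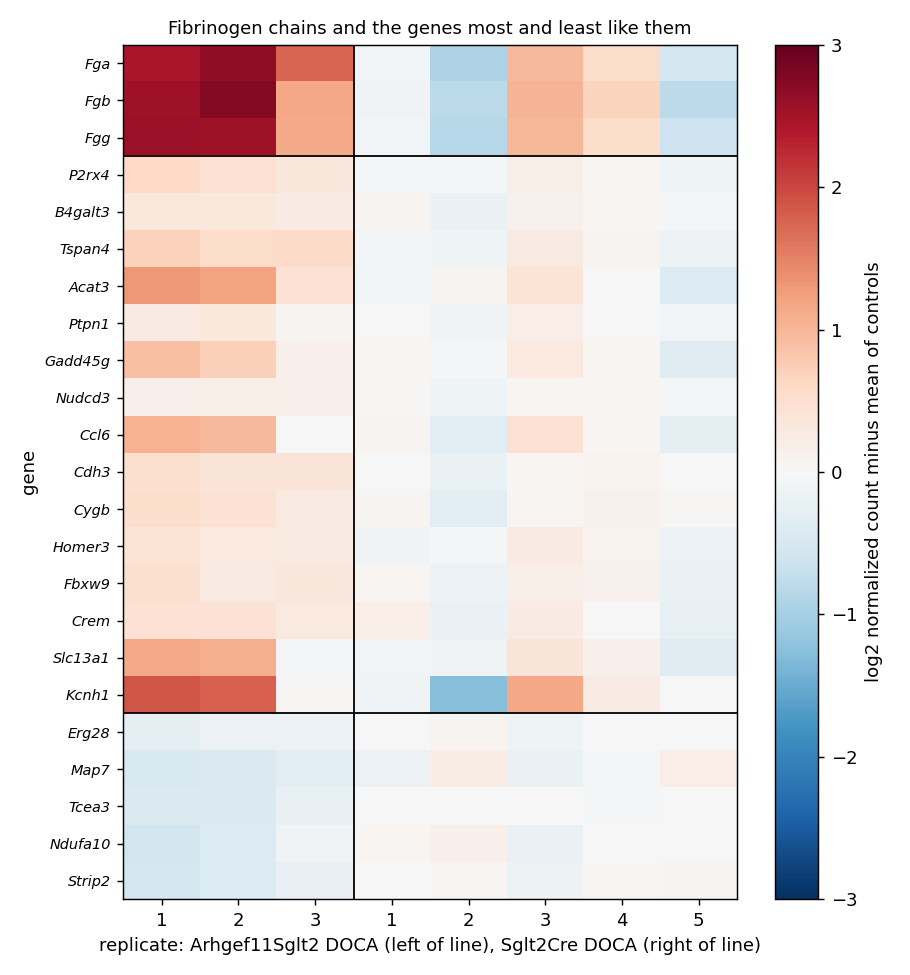
Log2 normalized count minus the control mean for the 3 chains, the 15 genes with the highest r and the 5 with the lowest, in 3 Arhgef11Sglt2 DOCA libraries (left of the line) and 5 Sglt2Cre DOCA libraries (right). The chains span a wider range than any other gene shown, and control replicates 3 and 2 mark the high and low ends of the controls for the chains.

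The related genes were taken from lists on fibrinogen control, use and source, compared by their counts of called members against backgrounds of 0.627% of genes higher and 1.59% lower. At an unadjusted p under 0.05, 9.04% of all genes were higher and 12.1% lower, and counts at that limit are read against these shares. Over all lists, 228 of 257 genes were measured, with 9 higher and 9 lower. Of these 18 calls, 17 were lost without control replicate 4 (adjusted p up to 0.124), 16 without Arhgef11Sglt2 replicate 3 (up to 0.196), 12 without control replicate 5 (up to 0.103), 11 without control replicate 3 (up to 0.105) and 9 without control replicate 1 (up to 0.0880). Fewer were lost without control replicate 2 (6), Arhgef11Sglt2 replicate 2 (4) and Arhgef11Sglt2 replicate 1 (1). Il11ra1 alone passed in each of the 8.

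Among other acute phase genes, which in liver are raised with fibrinogen, 1 of 14 measured members was higher and none lower (5 and 1 at an unadjusted p under 0.05), with a median log2 difference of 0.20 against -0.007 over all genes. Lcn2 (lipocalin 2, which binds bacterial siderophores and is released by injured tubules) had 7302, 4352 and 6932 normalized counts in the Arhgef11Sglt2 libraries, against 2007, 2553, 2196, 1872 and 1249 in the control libraries. Its ratio of means was 3.14 (limma adjusted p = 0.0154), and its replicate 3 was not low, unlike that of the chains. In every other measured member except Saa1, replicate 3 was the lowest Arhgef11Sglt2 library, as for the chains. Serpina3n had 1143, 701 and 318 there, against 302, 238, 257, 222 and 143 in the control libraries (limma adjusted p = 0.0759). Cp had 15443, 12501 and 9031, against 8741, 8488, 6974, 7972 and 6584 (limma adjusted p = 0.0748). Without Arhgef11Sglt2 replicate 3 the adjusted p of Lcn2 was 0.0581, and without control replicate 4 it was 0.0565.

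C3, the central complement component, had 57686, 34447 and 12252 normalized counts in the Arhgef11Sglt2 libraries, against 6302, 16866, 11411, 9355 and 6129 in the control libraries. Replicate 3 lay below the highest control, and the difference did not pass the test (limma adjusted p = 0.0986). Hp (haptoglobin) had 670, 491 and 203 in the Arhgef11Sglt2 libraries, against 743, 305, 46.3, 46.2 and 26.8 in the control libraries (limma adjusted p = 0.358). Saa1 (serum amyloid A) had 131, 17.4 and 21.4 in the Arhgef11Sglt2 libraries, against 1.08, 130, 8.80, 5.74 and 0 in the control libraries (limma adjusted p = 0.502). Control replicate 2, lowest of all libraries in Fga, Fgb and Fgg, was the highest control in C3, Saa1, Lcn2, Hpx and Orm1. It was the lowest control in Lbp (264, against 298 to 448 in the others) and C4b (1523, against 2093 to 4317). In the other measured members of the list it was neither.

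In the interleukin-6 and STAT3 pathway, 1 of 19 measured members was higher and 1 lower (6 and 1 at an unadjusted p under 0.05), with a median log2 difference of 0.19. Stat3, the transcription factor that carries the interleukin-6 signal to the nucleus, had 10651, 9731 and 13240 normalized counts in the Arhgef11Sglt2 libraries, against 7007, 5013, 7947, 7503 and 6719 in the control libraries, a ratio of 1.64 (limma adjusted p = 0.0467). The adjusted p of Stat3 was 0.176 without Arhgef11Sglt2 replicate 3, and 0.0831, 0.0665, 0.0952 and 0.0983 without control replicates 1, 3, 4 and 5. Il11ra1, a receptor for interleukin-11, was lower, with 1612, 1788 and 1577 in the Arhgef11Sglt2 libraries, against 2574, 2844, 2514, 2470 and 2492 in the control libraries (limma adjusted p = 0.0147).

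Socs3, the feedback inhibitor of STAT3 signalling, had 1692, 1037 and 1823 normalized counts in the Arhgef11Sglt2 libraries, against 588, 390, 1010, 848 and 976 in the control libraries (limma adjusted p = 0.0959). The receptor subunits Il6ra, Il6st and Osmr had adjusted p of 0.149, 0.906 and 0.140. For Stat3 and Socs3, replicate 3 was the highest Arhgef11Sglt2 library, whereas for the chains it was the lowest. Members of the list differed in this. Replicate 3 was the lowest Arhgef11Sglt2 library for Il6ra (508, 584 and 451), Il6st (14828, 12658 and 10574) and Lif (529, 456 and 242). For Osmr (2400, 2222 and 2247) it was neither.

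Of the liver-type transcription factors of fibrinogen promoters, 1 of 15 measured was higher and none lower (3 and 1 at an unadjusted p under 0.05), with a median log2 difference of 0.07. Cebpd, a C/EBP factor of the acute phase, had 679, 481 and 782 normalized counts in the Arhgef11Sglt2 libraries, against 234, 228, 323, 193 and 212 in the control libraries, a ratio of 2.72 (limma adjusted p = 0.0168). Without Arhgef11Sglt2 replicate 3 its adjusted p was 0.0535, and without control replicate 4 it was 0.0565. Cebpb had 549, 384 and 892 in the Arhgef11Sglt2 libraries, against 333, 212, 350, 326 and 261 in the control libraries (limma adjusted p = 0.0898). Hnf4a had an adjusted p of 0.390, and the glucocorticoid receptor Nr3c1 had 0.0552 with a ratio of 0.751.

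**Figure D4:**
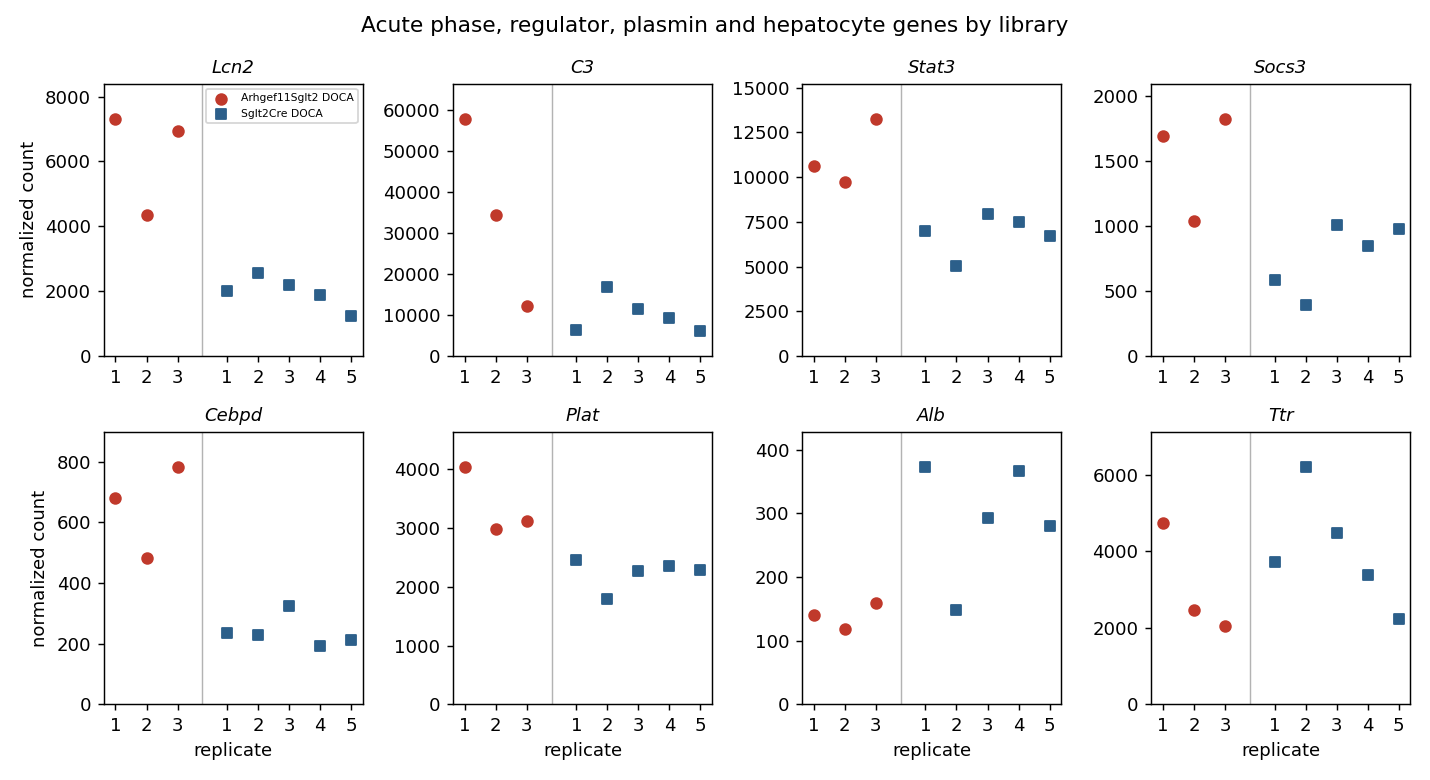
Normalized counts of Lcn2, C3, Stat3, Socs3, Cebpd, Plat, Alb and Ttr in 3 Arhgef11Sglt2 DOCA libraries (red circles) and 5 Sglt2Cre DOCA libraries (blue squares). Stat3, Socs3 and Cebpd are highest in Arhgef11Sglt2 replicate 3, and Alb is 119 to 160 in the Arhgef11Sglt2 libraries.

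Of the genes that form and crosslink fibrin, 0 of 17 measured were called in either direction by limma, with 1 higher and 2 lower at an unadjusted p under 0.05, and their median log2 difference was -0.04. Of these, F3, the tissue factor that starts coagulation, had 1796, 1101 and 1839 normalized counts in the Arhgef11Sglt2 libraries, against 1001, 962, 1123, 949 and 1119 in the control libraries (limma adjusted p = 0.0945). F13b, the carrier subunit of the crosslinking factor XIII, had 2799, 5286 and 3391 in the Arhgef11Sglt2 libraries, against 5564, 3682, 4988, 5939 and 6030 in the control libraries (adjusted p = 0.234 by limma).

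Among genes of fibrin breakdown and its inhibitors, 1 of 17 measured was higher and 1 lower (4 and 2 at an unadjusted p under 0.05), with a median log2 difference of 0.06. Plat, the tissue plasminogen activator, had 4037, 2989 and 3125 normalized counts in the Arhgef11Sglt2 libraries, against 2450, 1798, 2277, 2347 and 2280 in the control libraries, a ratio of 1.52 (limma adjusted p = 0.0474). Its call was lost without Arhgef11Sglt2 replicate 3 (0.119) and without any single control library (0.0588 to 0.105). Pzp, an alpha-2-macroglobulin type protease inhibitor, had 341, 64.5 and 117 in the Arhgef11Sglt2 libraries, against 672, 1444, 1654, 2334 and 2645 in the control libraries. The ratio of Pzp was 0.0994 (limma adjusted p = 0.020), or 0.0517 without Arhgef11Sglt2 replicate 1. The adjusted p of Pzp was 0.0841 without Arhgef11Sglt2 replicate 3, 0.0589 without control replicate 4. Plau (urokinase) had an adjusted p of 0.413.

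Of the receptors and adhesion partners of fibrinogen, 0 of 15 measured were called in either direction by limma, with 2 higher and 1 lower at an unadjusted p under 0.05 and a median log2 difference of 0.03. Icam1, an endothelial and tubule adhesion molecule that binds fibrinogen, had 3369, 2185 and 2843 normalized counts in the Arhgef11Sglt2 libraries, against 1807, 1429, 2211, 2085 and 1839 in the control libraries (limma adjusted p = 0.0979). Itgam, the leukocyte integrin chain that binds fibrin, had an adjusted p of 0.258.

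Other proteins with a fibrinogen-type domain gave 1 higher and 0 lower of 16 measured (1 and 2 at an unadjusted p under 0.05), with a median log2 difference of -0.01. The called gene was Angptl4, an inhibitor of lipoprotein lipase, with 3538, 5430 and 6950 normalized counts in the Arhgef11Sglt2 libraries, against 1550, 760, 2189, 2435 and 954 in the control libraries. Its ratio was 3.36 (limma adjusted p = 0.0389), and the adjusted p was 0.0696 and 0.162 without Arhgef11Sglt2 replicates 2 and 3, and 0.0667, 0.0505, 0.0573 and 0.0866 without control replicates 1, 3, 4 and 5.

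The chaperones and cargo receptors through which secreted proteins pass gave 0 limma calls among 12 measured genes, with 0 higher and 9 lower at an unadjusted p under 0.05. Their median log2 difference was -0.35, and all 12 values were negative. Calr (calreticulin) had 32141, 17134 and 15558 normalized counts in the Arhgef11Sglt2 libraries, against 26866, 39496, 28194, 32252 and 31592 in the control libraries (limma adjusted p = 0.160). Replicate 1 lay among the controls.

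Hepatocytes are the main known source of fibrinogen. Of 18 hepatocyte markers, 14 were measured and 0 called by limma, with 0 higher and 1 lower at an unadjusted p under 0.05 and a median log2 difference of -0.05; Ahsg, Tf, Cps1 and Tat were not among the listed genes. Alb (albumin) had 140, 119 and 160 normalized counts in the Arhgef11Sglt2 libraries, against 373, 149, 292, 366 and 280 in the control libraries (limma adjusted p = 0.101), and Apoa1 had 15.3, 15.5 and 23.2 in the Arhgef11Sglt2 libraries, against 11.4, 12.9, 9.22, 5.49 and 18.4 in the control libraries. The summed list ran from 17212 to 26162 in the Arhgef11Sglt2 group and from 17859 to 20082 in the control group. Most of it was Apob and Ttr, with limma adjusted p of 0.410 and 0.536. The highest sum was that of Arhgef11Sglt2 replicate 1. Serpina1a had 6308, 1519 and 918 in the Arhgef11Sglt2 libraries, against 3170, 2360, 1946, 1443 and 1445 in the control libraries (limma adjusted p = 0.920). Serpina1b had 2049, 315 and 327, against 522, 1158, 393, 293 and 298 (limma adjusted p = 0.736).

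Blood cell markers were set beside the chains because platelets and clots carry fibrinogen protein. Platelet and megakaryocyte markers (4 of 10 measured) gave 0 limma calls, 1 higher at an unadjusted p under 0.05, and sums of 190 to 244 normalized counts in the Arhgef11Sglt2 group and 220 to 358 in the control group. Red cell markers (6 of 6 measured) gave 0 limma calls, 1 lower at an unadjusted p under 0.05, and sums of 5741 to 15153 in the Arhgef11Sglt2 group and 6832 to 24628 in the control group. Macrophage markers (10 of 10) gave 0 limma calls, 0 at an unadjusted p under 0.05, and sums of 9041 to 25938 in the Arhgef11Sglt2 group and 14173 to 18870 in the control group.

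Neutrophil markers (6 of 8 measured) summed to 408 to 653 normalized counts in the Arhgef11Sglt2 group and 184 to 415 in the control group. Of them 1 was higher and 0 lower, with 5 higher and 0 lower at an unadjusted p under 0.05 and all 6 log2 differences positive. The called gene was Retnlg, with 25.9, 38.5 and 37.2 in the Arhgef11Sglt2 libraries, against 7.41, 17.7, 2.35, 2.81 and 2.70 in the control libraries (limma adjusted p = 0.0467). Its ratio was 5.13, and 8.87 without control replicate 2. The adjusted p of Retnlg was 0.0896 and 0.171 without Arhgef11Sglt2 replicates 2 and 3, and 0.0785, 0.0983, 0.110 and 0.0989 without control replicates 1, 3, 4 and 5. The part of these cells in the chain levels was not tested.

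All 7 called members of the kidney cell marker lists were lower. Early proximal tubule markers gave 0 higher and 2 lower of 10 (0 and 6 at an unadjusted p under 0.05), Slc34a1 (a phosphate transporter) and Lrp2 (megalin), with ratios of 0.618 and 0.613 and limma adjusted p of 0.0491 and 0.0462. Late proximal tubule markers gave 0 higher and 4 lower of 9 (0 and 6 at an unadjusted p under 0.05), with ratios of 0.138 for Slc7a13, 0.233 for Slc22a30, 0.363 for Acy3 and 0.419 for Mep1b. Thick ascending limb and distal markers gave 1 lower of 10 (Cldn10), with 0 higher and 5 lower at an unadjusted p under 0.05, and glomerular markers 0 of 8 by limma and 0 at an unadjusted p under 0.05. Without Arhgef11Sglt2 replicate 3 the adjusted p of the 7 genes ran from 0.0694 (Slc22a30) to 0.196 (Slc34a1), and without control replicate 4 from 0.0573 to 0.124 in the same genes. All late proximal tubule sums of the Arhgef11Sglt2 group (154899 to 188630 normalized counts) lay below those of the control group (215647 to 259056). By sets of values that do not overlap, 8.14% of all genes had every Arhgef11Sglt2 library below every control, against 5 of 9 late proximal tubule markers. The same held for 3 of 10 early proximal tubule markers, 3 of 10 thick ascending limb and distal markers and 0 of 8 glomerular markers.

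Tubule injury markers gave 3 higher and 0 lower of 18 (8 and 0 at an unadjusted p under 0.05), with a median log2 difference of 0.49. Besides Lcn2 these were Krt20, a keratin of injured tubule cells, and Plin2, a lipid droplet coat protein. Krt20 had 2481, 697 and 626 normalized counts in the Arhgef11Sglt2 libraries, against 120, 294, 245, 122 and 68.2 in the control libraries, a ratio of 7.47 (limma adjusted p = 0.0458) that was 3.90 without Arhgef11Sglt2 replicate 1. Plin2 had 8418, 8155 and 28731 in the Arhgef11Sglt2 libraries, against 3031, 3449, 3474, 4148 and 2658 in the control libraries, a ratio of 4.51 (limma adjusted p = 0.0389) that was 2.47 without Arhgef11Sglt2 replicate 3. The call of Krt20 was lost without Arhgef11Sglt2 replicate 3 (adjusted p 0.0704) and without any single control library (0.0514 to 0.107). That of Plin2 was lost without any single control library (adjusted p 0.0577 to 0.0898). Fibroblast and matrix genes gave 1 higher of 14 (2 higher and 1 lower at an unadjusted p under 0.05), Lox (ratio 2.10, limma adjusted p = 0.0253, and 0.106 without Arhgef11Sglt2 replicate 3). The adjusted p of Lox was 0.0573 and 0.0640 without control replicates 4 and 5. The part of tubule injury in the chain levels was not tested.

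**Figure D5:**
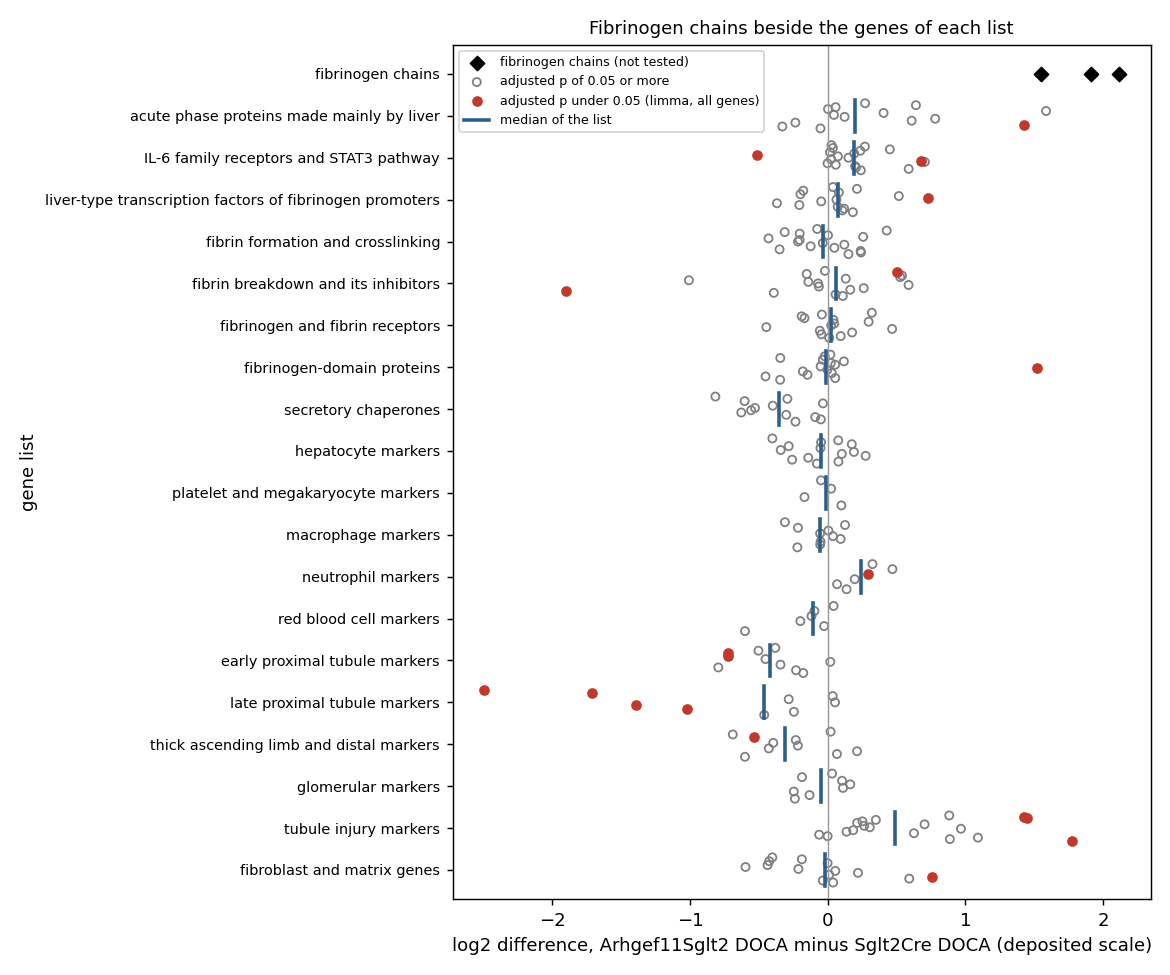
Log2 difference on the deposited scale (Arhgef11Sglt2 DOCA minus Sglt2Cre DOCA) of each measured member of each list, with the chains as black diamonds, called genes filled red, other genes open and list medians as blue bars. The chains lie at 2.11, 1.55 and 1.91, to the right of nearly every gene of the lists.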

How the data were processed

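RNA was measured in 8 mouse kidney libraries. Per the labels' protocols, stranded poly(A) libraries were made with a TruSeq kit and sequenced on a NextSeq 2000; the submitters' processing notes name Salmon 1.10.0, DESeq2 (no version) and the GRCm39 build. The deposited values are log2 values on a variance-stabilized scale, read from the values themselves: all 8 columns share a minimum of 8.13, the value of a zero count. From that minimum they were inverted to normalized counts. Of low values, 41.7% lay within 0.02 steps of a whole read (4% by chance), too few to recover reads for a count model; depth was estimated from the steps.

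limma 3.58.1 in R 4.3.3, tested on simulated data, was fitted to the deposited values of 15948 genes with group as the only term (6 residual degrees of freedom, variance trend, Benjamini-Hochberg threshold 0.05). Ratios are of group means of normalized counts. Symbols matched 15902 genes (99.71%). Named genes were the chains, the 15 highest and 5 lowest by r, the 10 highest by r within groups, called list members, the members with the highest level of lists with no call, and a fixed panel of fibrinogen-related genes. The members, lists and panel were chosen with earlier results of these data known. Same-numbered replicates of the groups did not deviate together (r from -0.18 to -0.007), so the numbers were not used as pairs. Within groups no 2 libraries were duplicates: 0.13% to 0.28% of values were identical between pairs. Alternatives covered blocks, pseudocounts, scaling, variance settings, sample weights, a filter, the threshold and each library left out. Some genes of the lists and panel are counted but not reported here by name.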

Additional observations from a re-analysis of the deposited data

Results flagged for a closer look

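Among 76 genes examined over the 5 control libraries, 5 had a library far from the other four (Dixon's gap ratio above 0.710), and chance alone gives such a gap in about 1 group of 20. The 5 of 76 are near that share, so nothing is read from their number or from which library stood apart. Saa1 had a gap ratio of 0.735, with 130 normalized counts in control replicate 2 and 0 to 8.80 in the others. Plat had a gap ratio of 0.759, with 1798 in control replicate 2 and 2277 to 2450 in the others. Lox had a gap ratio of 0.744, with 436 in control replicate 2 and 754 to 892 in the others. Cygb, one of the genes most like the chains, had a gap ratio of 0.795, with 1038 in control replicate 2 and 1329 to 1414 in the others. Lrp2 had a gap ratio of 0.825, with 100570 in control replicate 1 and 116321 to 119977 in the others. No fibrinogen chain passed this limit. In 4 of these 5 genes the library was control replicate 2, which also had the lowest value of Fga, Fgb and Fgg. It was low in Plat, Lox and Cygb but high in Saa1. Cygb was picked by its likeness to the chains, so its low value there is not separate from theirs.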

How the results depend on the processing

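Fga and Fgg kept their direction, and their log2 differences moved by less than the spread between replicates, under all 13 alternatives. Leaving out one library gave log2 differences of 1.92 to 2.37 for Fga, 1.30 to 1.96 for Fgb and 1.67 to 2.36 for Fgg. For Fgb the difference was 2.15 with a pseudocount of 1 and 2.13 with a pseudocount of 10, against 1.55 on the deposited scale, which compresses low values. The same compression bears on the log2 ratios: Fgb to Fgg differed by -0.36 between groups on the deposited scale and by 0.068 from back-transformed counts, and Fga to Fgb by 0.57 and 0.13. Leaving out one library gave -0.43 to -0.28 for Fgb to Fgg, 0.42 to 0.64 for Fga to Fgb and 0.01 to 0.36 for Fga to Fgg, the 0.01 being without Arhgef11Sglt2 replicate 3. The 354 calls over all genes became 0 with the replicate block (866 higher and 1300 lower at an unadjusted p under 0.05; control replicates 4 and 5 have no partner), 874 with sample weights and 1038 at a threshold of 0.1, and ran from 24 to 1334 with one library left out; the cause was not tested. The calls in the lists, 9 higher and 9 lower, were 0 and 0 with the replicate block and ran from 0 to 16 higher and from 1 to 22 lower with one library left out.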

Other observations

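With the group means taken off, so that only variation among libraries of the same group remained, the genes most like the chains were Sema3e, Notum, Exoc8, Slc35e3, Elmod2, Sphk2, Chst3, Gnai1, Tha1 and AW209491, with r from 0.973 to 0.938 over 8 libraries. None of the 10 was among the 15 genes most like the chains over all libraries, and 0 passed the limma threshold between the groups (0 at an unadjusted p under 0.05). Over all genes, 0.627% passed as higher and 1.59% as lower, and 9.04% and 12.1% at an unadjusted p under 0.05. Nothing is therefore read from these counts. Sema3e, a semaphorin, had 146, 159 and 87.2 normalized counts in the Arhgef11Sglt2 libraries, against 126, 104, 194, 197 and 105 in the control libraries. Notum, an extracellular inhibitor of Wnt proteins, had 422, 404 and 323 in the Arhgef11Sglt2 libraries, against 479, 397, 540, 498 and 416 in the control libraries. In both genes Arhgef11Sglt2 replicate 3 was the lowest of its group and control replicates 3 and 4 were the highest of theirs, as for the chains. Over the 10 genes the ratio of group means ran from 0.742 (Chst3, with every Arhgef11Sglt2 library below every control) to 1.14 (Slc35e3). Groups without overlap in the direction of Chst3 were found for 8.14% of all genes. Slc35e3, a member of a family of nucleotide-sugar transporters, had an r of 0.967 within groups and 0.882 over all libraries. These genes were picked by their r among 12318, so no p is given.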
